A study of Bos taurus with 32 samples.

Results

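Cytosolic ribosomal proteins were read from 55 of the 15208 bovine probes of a custom 60-base Agilent array. They are the probes whose gene name begins with RPL or RPS and a digit, or is RPSA, RPLP0, RPLP1 or RPLP2, with the S6 kinases (RPS6K) left out. The choice used names only and no measured value. The 55 probes carried 51 of the 15077 gene and transcript names on the array and 54 distinct sequences, with 25 probes for proteins of the small subunit and 30 for proteins of the large subunit. No probe was named RPSA, and 10 further probes whose accession names a ribosomal protein lay outside the rule. The RNA came from the endometrium of non-lactating Japanese Black cows slaughtered on Day 15 after estrus. Repeat breeder (RB) cows showed estrous behaviour but had not conceived after 3 or more inseminations, with a uterus and ovaries that felt healthy on rectal palpation. Non-RB cows had conceived within 3 inseminations. Their pregnancy was then ended with a prostaglandin F2α analogue, and at least 2 normal cycles followed, so that both groups were cyclic and not pregnant at that time. In each of 4 RB and 4 non-RB cows the caruncles (CAR), the raised areas where the placenta attaches, and the intercaruncular endometrium (ICAR) between them were dissected from the middle part of each horn, and the horn on the side of the corpus luteum is called ipsilateral and the opposite one contralateral. This gave 8 combinations of group, compartment and horn with 4 arrays each. The labels number the arrays 1 to 4 within each combination, and taking the same number in a group as the same cow is an assumption.

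The ribosome makes proteins from mRNA and consists of a small subunit, which reads the message, and a large subunit, which joins the amino acids. The stalk of the large subunit, built from RPLP0, RPLP1 and RPLP2, receives the factors that drive each step. In mammals the mRNAs of nearly all of these proteins begin with a run of pyrimidines, the 5′ TOP motif, by which the MTOR kinase controls their translation together, and S6 kinase, a target of MTOR, phosphorylates RPS6. They are among the most abundant mRNAs of most cells, and uterine glands, luminal epithelium and stroma all carry them.

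The sequences that bear on the results were taken from the probe annotation in the deposited array files, where they are written 5′ to 3′. The spots named RPL24 and RPL30 are shown whole, in capitals, because every base is shared. These are separate proteins of the large subunit, and which of their mRNAs the common sequence measured was not tested.
RPL24 (ABR2006): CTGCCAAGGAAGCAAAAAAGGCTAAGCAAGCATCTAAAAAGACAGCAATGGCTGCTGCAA
RPL30 (ABR7264): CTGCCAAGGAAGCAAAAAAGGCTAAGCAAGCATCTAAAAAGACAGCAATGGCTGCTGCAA
The next 5 probes are those with the lowest p in a comparison below (RPLP0, RPS12 and RPS18), a probe named in 4 comparisons (RPL21), and one whose value fell far from its group on an array of poor quality (RPS15A).
RPLP0 (ABR15): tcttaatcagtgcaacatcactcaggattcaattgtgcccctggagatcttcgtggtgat
RPS12 (ABR1226): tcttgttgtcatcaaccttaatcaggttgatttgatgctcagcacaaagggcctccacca
RPL21 (ABR37): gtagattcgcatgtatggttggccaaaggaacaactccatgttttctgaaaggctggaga
RPS18 (ABR345): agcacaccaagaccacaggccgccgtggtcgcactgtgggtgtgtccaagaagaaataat
RPS15A (ABR1694): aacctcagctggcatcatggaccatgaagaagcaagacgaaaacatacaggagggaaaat
The labelling began from an oligo-dT primer, so that sequence close to the poly(A) tail is the best represented. The canonical polyadenylation hexamer, AATAAA, was found in 9 of the 54 member sequences (16.7%) and in 1700 of the 15011 distinct sequences of the array (11.3%). On the other strand 0 member sequences held it, against 627 of all sequences (4.18%). Stretches of 5 of the 9 are shown with the hexamer in capitals.
RPLP1 (A_73_111019): taacacattgAATAAAaagctgagct
RPLP2 (ABR1354): ctcccctgcaAATAAAc
RPS25 (ABR3601): cattttgaaaAATAAA
RPL29 (ABR7256): tatttgtacaAATAAA
RPS29 (ABR1342): ttgtatataaAATAAAagtt
The member sequences had a median GC content of 45.0%, from 30.0% to 63.3%, against 43.3% over all sequences.

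On each array the signal of a spot was expressed as log2 of its processed intensity minus the array's 75th percentile, so that 0 is the level that 3 in 4 probes lie below. That percentile lay between 1165 and 4857 intensity units, and 74.3% to 85.8% of probes were well above background. Of the 55 ribosomal protein probes, 54 were well above background on all 32 arrays, and the remaining probe, RPL3L, named for a paralog of RPL3 known from striated muscle, on 31. Of these probes, 46 had a median intensity over 5000, from 9612 to 466143. The other 9 (RPS15A ABR7622, RPL26, RPS12 ABR3265, RPL21, RPLP0, RPL6, RPS12 ABR1226, RPS3A and RPL3L) had medians from 66.8 to 1482. Brightness depends on the probe as well as on the mRNA, and whether these dim probes lie on the strand of their mRNA was not tested. The brightest spots were at the upper limit of the scanner: 42 probes were read on at least 29 arrays from the low-gain part of an extended-range scan, 3 on 1 to 4 arrays and 10 on none. Saturation remained in 2 of 1760 spots, both of RPS14, a protein of the small subunit.

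The median level of the ribosomal protein probes shifted from array to array. Against each probe's median over the 32 arrays, the median of the 55 deviated by -0.89 to 0.52 on the log2 scale. Without slide 1 it deviated by -0.60 to 0.52. Either range was wider than the -0.26 to 0.15 of the 719 other probes in the brightest 5 percent. The 2 arrays of slide 1, which were non-RB CAR contralateral replicate 2 and non-RB ICAR contralateral replicate 1, had the medians -0.50 and -0.89 and held 17 and 25 of these probes more than 1 below their own median, while no other array held more than 6. On the same arrays the 100 identical GAPDH spots had SDs of 1.32 and 0.869, against at most 0.536 elsewhere, and 11 and 2 ribosomal protein spots carried an outlier flag and were left out. The 2 arrays of slide 1 were also the only ones of the first of 4 scan sessions, in which no RB array was scanned. A session here is the calendar month of the scan date, which may hold more than 1 scanning day. The median deviation lay between -0.60 and 0.10 in session 2 (9 RB and 3 non-RB arrays), between -0.07 and 0.32 in session 3 (4 and 7) and between -0.14 and 0.52 in session 4 (3 and 4). The SD within the 8 groups, pooled, had a median of 0.467 over the members and 0.536 over all probes, and without slide 1 these were 0.376 and 0.468. Without it RPLP2 (0.222) and RPL18 (0.224) were among the tightest, and the widest were RPS3A (0.866), RPL9 (0.714) and RPS15A ABR7622 (0.668). For 17 members the SD was more than 1.5 times smaller without slide 1.

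**Figure D1:**
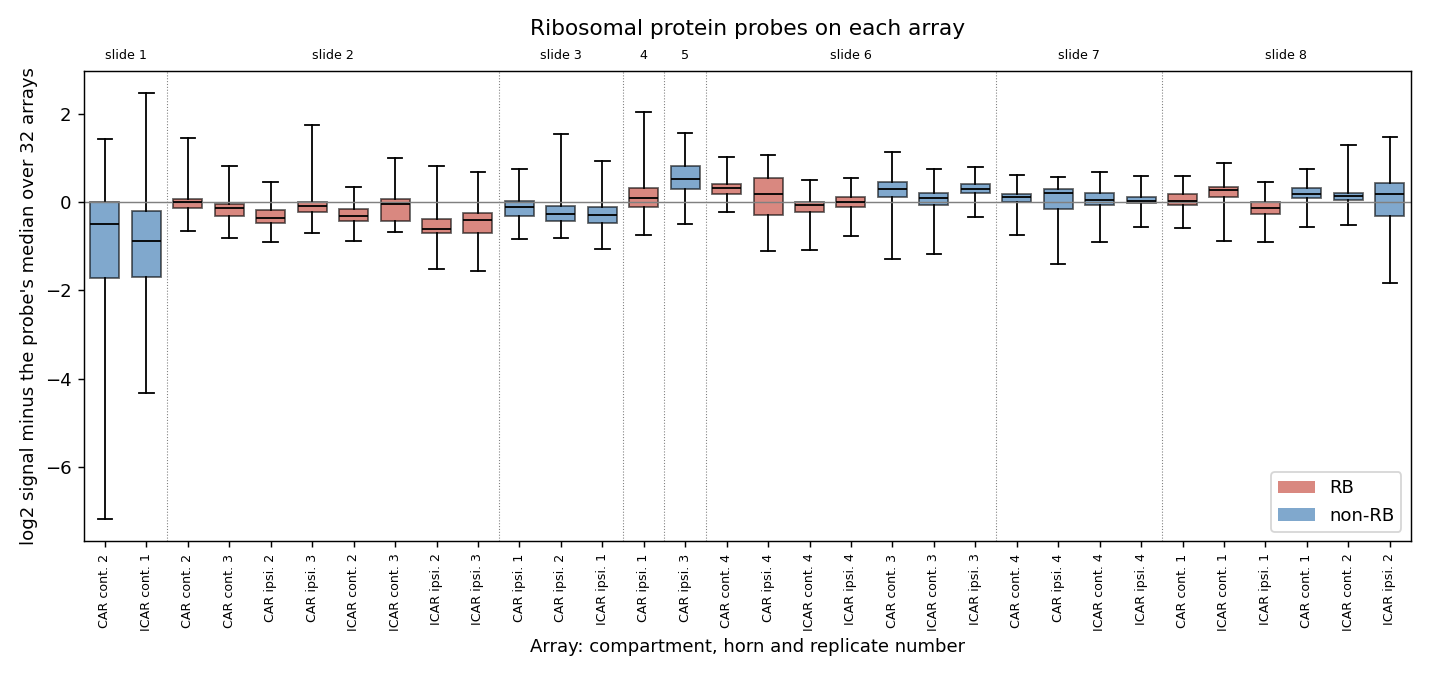
Deviation of the 55 ribosomal protein probes from their own medians over 32 arrays (log2 scale), with 1 box per array in slide order. Boxes are quartiles, the line the median and the whiskers the full range. The 2 arrays of slide 1 have medians of -0.50 and -0.89 and the widest boxes.

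The spots named RPL24 and RPL30 measured how well identical sequences repeated. Over the 30 arrays outside slide 1 their log2 signals differed by a median of 0.11 in size, with RPL24 minus RPL30 between -0.20 and 0.65, and 27 of the 30 pairs lay within 0.5. On slide 1 they came apart. On non-RB CAR contralateral replicate 2 the spot named RPL24 stood at 1.60 and the spot named RPL30 at -3.01, a difference of 4.61. On non-RB ICAR contralateral replicate 1 they stood at -0.12 and 1.38. The spots lie in rows 52 and 176 of the array. RPS13, a small subunit protein, also had a second spot of its sequence, named by an accession, and here the difference stayed between -0.21 and -0.04 on the 30 arrays. Identical second spots also existed for RPL7, which differed by up to 0.87 in size on these arrays, and for RPS15A ABR7622, which differed by up to 1.74. The second spot of the latter carries another locus name, so the gene it measures is uncertain.

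**Figure D2:**
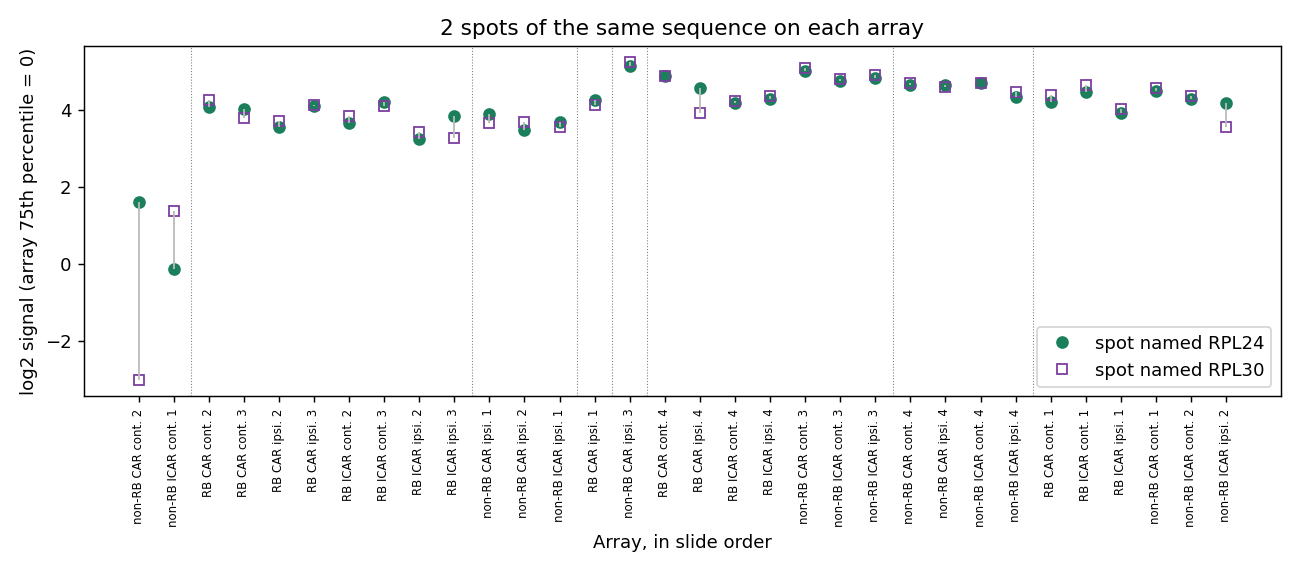
Log2 signal of the spots named RPL24 (filled circles) and RPL30 (open squares), which have the same 60 bases, on the 32 arrays in slide order (dotted lines separate slides). Of the 30 pairs outside slide 1, 27 lie within 0.5 and the widest differ by 0.65, while on the 2 arrays of slide 1 they differ by 4.61 and -1.50.

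Over the 8 combinations the array medians of the 55 probes averaged as follows, as mean ± SD with n = 4. In ipsilateral CAR they were 0.08 ± 0.355 in non-RB and -0.04 ± 0.244 in RB cows. In ipsilateral ICAR they were 0.06 ± 0.253 in non-RB and -0.28 ± 0.273 in RB cows, the lowest of the 8. In contralateral CAR they were 0.02 ± 0.354 and 0.05 ± 0.190, and in contralateral ICAR -0.15 ± 0.493 and -0.05 ± 0.243. Without slide 1 the non-RB means became 0.20 ± 0.085 in contralateral CAR and 0.10 ± 0.042 in contralateral ICAR (n = 3 each). In each compartment and horn the arrays of RB and non-RB cows overlapped.

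**Figure D3:**
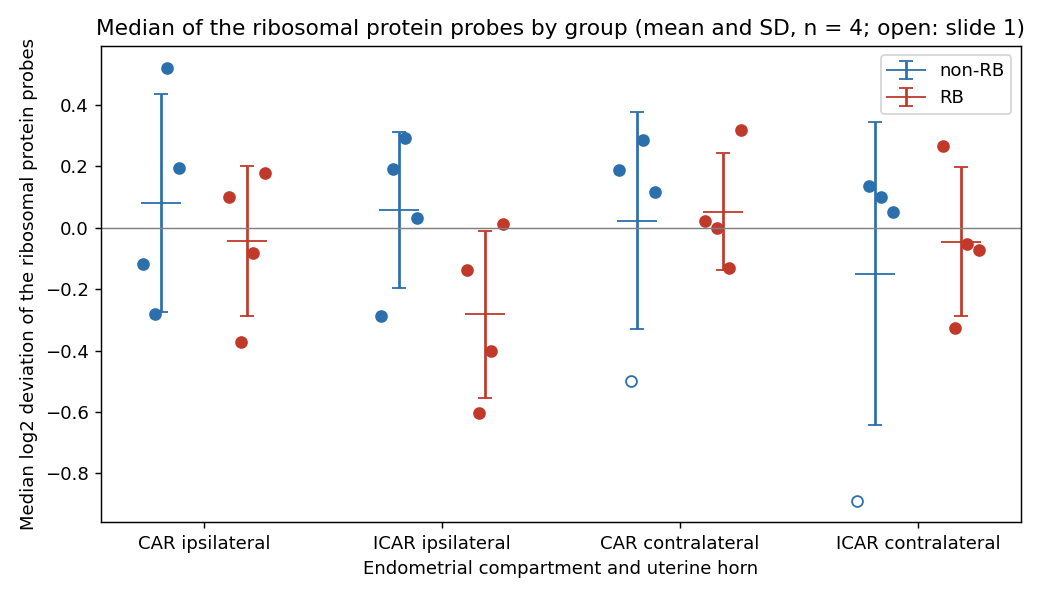
Median log2 deviation of the 55 ribosomal protein probes on each array (points), with the mean and SD of 4 arrays, for RB and non-RB cows in each compartment and horn. Open points are slide 1, and the lowest mean is that of RB cows in ipsilateral ICAR (-0.28).

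No ribosomal protein probe differed at an adjusted p under 0.05 in any of 9 comparisons by limma: RB against non-RB in the 4 compartments and in the whole uterus, CAR against ICAR, the ipsilateral against the contralateral horn, and the difference of the RB effect between CAR and ICAR and between horns. The adjustment covered all probes tested in each, and over all probes 0% passed it in 8 of the comparisons and 1.35% between CAR and ICAR. The shifts below are thus described by their counts, medians and intervals.

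In ipsilateral ICAR most ribosomal protein probes were lower in RB cows, 51 of 55, where 53.1% of all 12889 probes tested lay below 0. The median difference, RB minus non-RB, was -0.33 over the members and -0.03 over all probes, and the differences ran from -0.77 to 0.20. Small subunit and large subunit members had like medians, -0.31 and -0.33. The 719 other bright probes had a median of -0.14, with 71.9% below 0. At an unadjusted p under 0.05, 1 of 55 members was lower, against 1.45% of all probes lower and 3.69% in either direction, and the methods' t-test gave 4 of 55 against 3.55% of all probes. RB and non-RB arrays did not overlap for 1 member, RPL15, against 1.32% of all probes apart in this direction.

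The member with the lowest p in ipsilateral ICAR was the probe named for RPLP0, the base of the ribosomal stalk. This probe and that of RPL21 are among the dim ones, whose strand was not tested. The log2 signal of the RPLP0 probe on RB arrays 1 to 4 was -4.72, -5.46, -4.75 and -4.11, and on non-RB arrays -4.09, -3.59, -4.14 and -4.15. The fourth RB array lay among the non-RB arrays, so the groups overlapped. The difference was -0.77 (SE 0.299, 95% interval -1.44 to -0.09), which is 1.70-fold, with p = 0.0296, adjusted p = 0.863 and p = 0.0857 in the two-sided exact permutation test, whose smallest possible value is 0.0286. RPS18, a small subunit protein, stood at 5.72, 5.23, 5.17 and 5.75 in RB cows and at 5.70, 6.31, 6.05 and 5.90 in non-RB cows. The highest RB array passed only the lowest non-RB array, and the difference was -0.52 (limma p = 0.0517, adjusted p = 0.863, exact permutation p = 0.0857). RPL21, of the large subunit, followed with -0.57 (limma p = 0.080, exact permutation p = 0.143), and its RB values of -3.91, -4.32, -4.31 and -3.40 overlapped the non-RB values of -3.41, -2.86, -3.78 and -3.61.

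RPL15, of the large subunit, was lower on every RB array and is described for that separation, not for its p. It stood at 5.57, 4.95, 5.41 and 5.56 in RB cows and at 5.73, 5.91, 5.84 and 5.60 in non-RB cows. The gap between the groups, from 5.57 to 5.60, was narrow, and the difference of -0.40 had p = 0.0955 by limma and the smallest exact permutation p of 0.0286. With no value missing, every probe whose groups do not overlap takes this permutation p, so it only restates the separation. On the higher side were RPL26 (0.20), RPL4 (0.15) and RPS27L (0.03), none with an unadjusted p under 0.05 and each turned below 0 under at least 1 alternative.

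Batches were spread unevenly here, since RB replicates 2 and 3 were on slide 2 with no non-RB array. Within slides holding both groups the median member difference was -0.28 on slide 6 (49 of 55 below 0, against 48.0% of all probes) and -0.32 on slide 8 (35 of 55, against 63.2%). Within scan sessions 2 and 3 it was -0.21 and -0.17, with 43 and 44 of 55 members below 0 against 53.7% and 45.1% of all probes, and session 4 held the same arrays as slide 8. On slide 8 the share of members below 0 was thus close to that of the array, while the median of all probes was -0.11. Each of these sets 1 or 2 arrays against 1 or 2. With quantile normalization the median was -0.12, with 40 of 55 members below 0 against 51.0% of all probes. Leaving out non-RB replicate 1 gave 10 members with an unadjusted p under 0.05 against 10.7% of all probes, leaving out RB replicate 4 gave 4 against 5.02%, and leaving out RB replicate 2, RB replicate 3 or non-RB replicate 2 gave 0.

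The tissue was whole dissected endometrium, in which fewer cells of a type and less RNA per cell cannot be told apart. Markers of epithelium (5 of 5 probes), stroma (6 of 6), endothelium (4 of 4), smooth muscle (2 of 2) and B and plasma cells (2 of 2) were well above background on all arrays, as were both probes of the gland list, MUC1 and C20ORF114. This held for 1 of 6 T and NK cell and 1 of 2 macrophage probes, haemoglobin HBB was well above background on 0 arrays, and the ciliated cell list had 0 probes. In ipsilateral ICAR the mean level of the 2 gland list probes was 1.43 to 1.64 on RB and -0.43 to 1.34 on non-RB arrays, without overlap. Over all 12889 probes tested, 117 lay apart with RB arrays higher. The epithelium list lay at 0.70 to 1.62 in RB cows and 1.01 to 1.95 in non-RB cows, and the stroma list at -0.18 to 0.70 and 0.01 to 1.04. Their part in the ribosomal protein values was not tested.

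**Figure D4:**
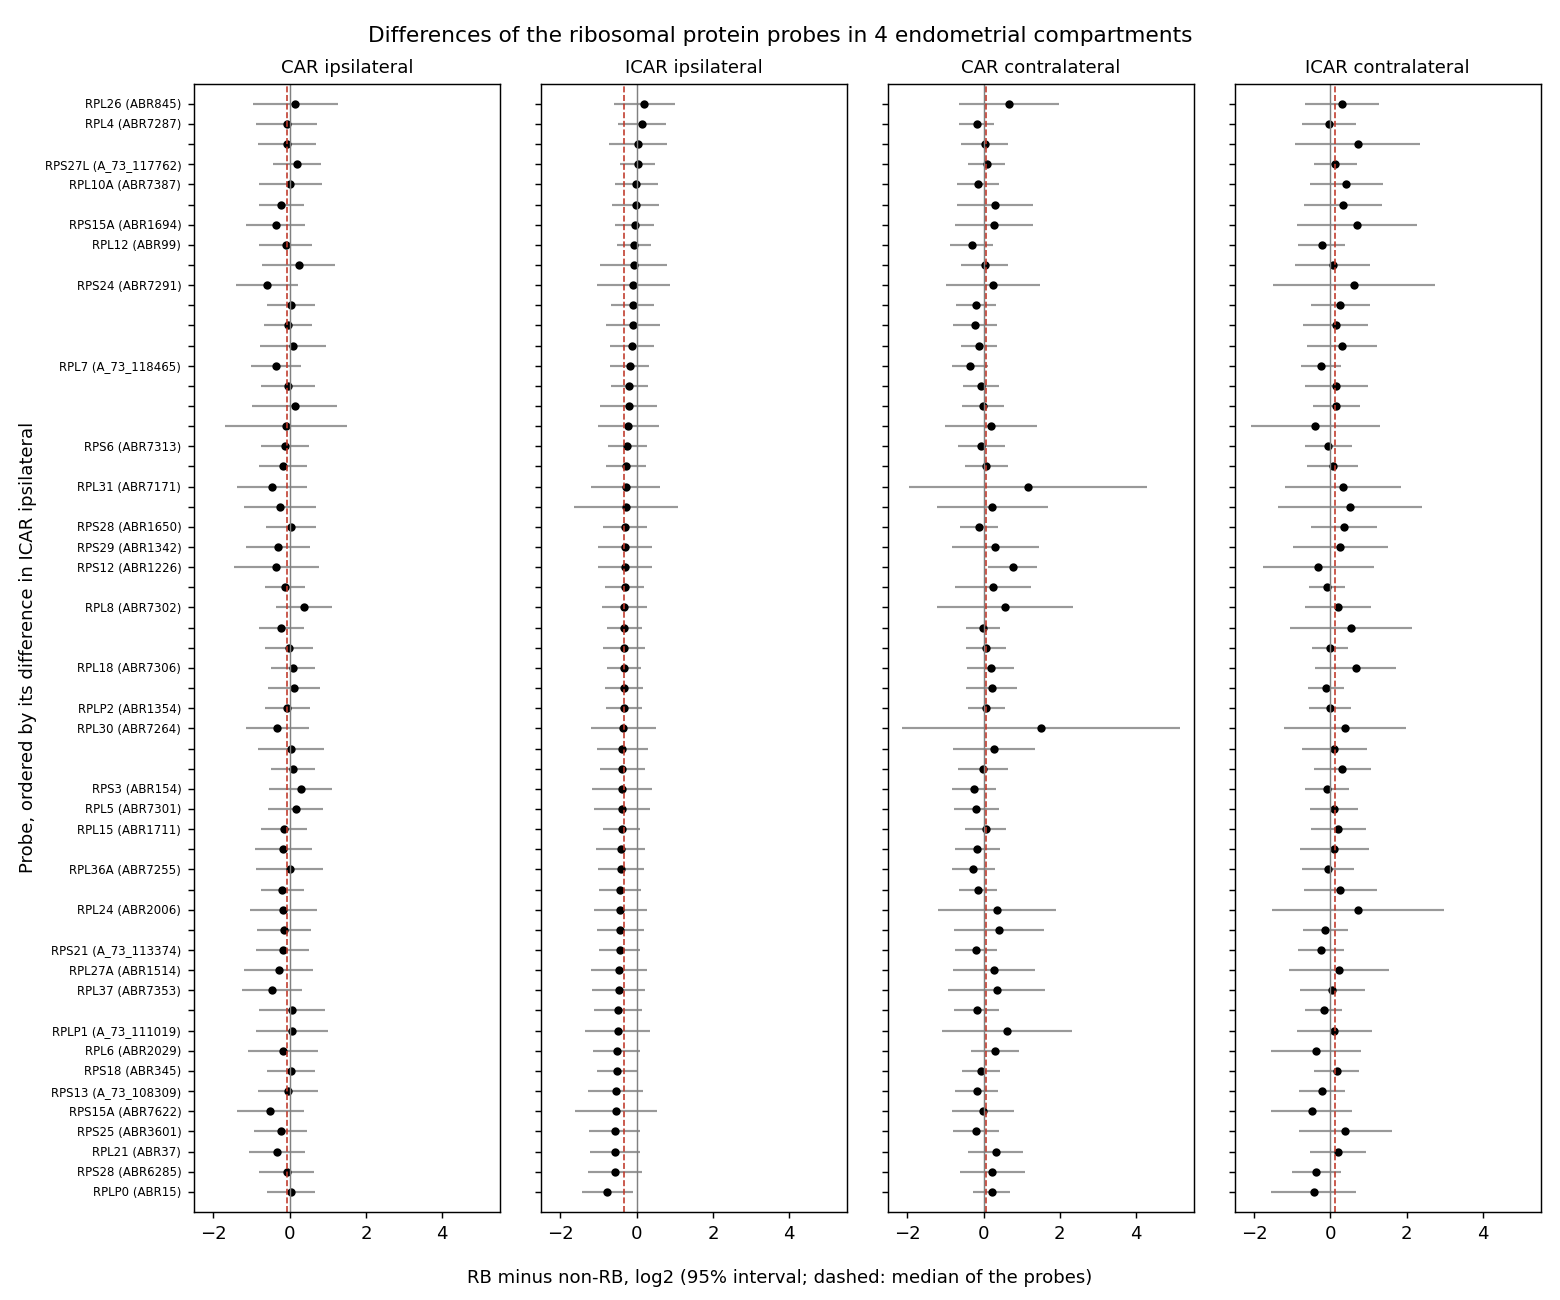
Difference RB minus non-RB (log2) with its 95% interval for each of the 55 ribosomal protein probes in 4 compartments, 4 against 4 arrays, ordered by ipsilateral ICAR, with labels for probes named by rank in a comparison and for the stalk and RPS6. The dashed line is the median member difference, which is -0.08, -0.33, 0.06 and 0.13 from left to right.

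In ipsilateral CAR the members were spread around 0, with a median of -0.08 against 0.02 over all probes, and 36 of 55 lay below 0, against 47.5% of all probes. With quantile normalization the direction turned, to a median of 0.09 and 20 below 0 against 48.2% of all probes. Small and large subunit medians were -0.10 and -0.07. By limma 0 members had an unadjusted p under 0.05, against 3.41% of all probes, and the methods' t-test also gave 0, against 3.53%. The lowest p on the lower side belonged to RPS24 of the small subunit, with -0.59 (95% interval -1.40 to 0.21), RPS15A ABR7622 with -0.52 and RPL37 of the large subunit with -0.48. On RB arrays RPL37 stood at 6.33, 5.44, 5.58 and 5.47, and on non-RB arrays at 5.58, 5.80, 6.91 and 6.43, so that the groups overlapped through the first RB array, which lay above the first and second non-RB arrays. On the higher side it belonged to RPL8 (0.37), RPS3 (0.29) and RPS27L (0.19). Within session 2 the median difference was 0.09 (-0.04 over all probes), within session 3 it was 0.18 (0.08), and no slide held both groups.

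In contralateral CAR the median was 0.06 against 0.00 over all probes, with 24 of 55 members below 0 against 49.8% of all probes. The value rested on the slide 1 array: without non-RB replicate 2 the median was -0.18 and 46 of 55 members were below 0 against 41.7% of all probes, and with array quality weights it was -0.03 with 37 below 0 against 36.6%. At an unadjusted p under 0.05, 1 member was higher in RB, RPS12 ABR1226, against 1.2% of all probes higher and 1.74% in either direction, and the methods' t-test gave 2 against 1.82%. This small subunit probe is among the dim ones, whose strand was not tested. It stood at -5.11, -4.86, -4.69 and -4.72 on RB and at -5.04, -5.52, -6.26 and -5.60 on non-RB arrays. The groups overlapped through the first array of each, and the difference was 0.76 (SE 0.283, 95% interval 0.12 to 1.40, p = 0.0249, adjusted p = 0.9998, exact permutation p = 0.0571). The other RPS12 probe, ABR3265, had -2.26, -1.66, -1.36 and -1.82 in RB cows and -2.17, -1.83, -1.36 and -1.85 in non-RB cows, with full overlap.

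Other members named in contralateral CAR were RPL26 (0.68) and RPL6 (0.31) on the higher side, and RPL7 (-0.35), RPL12 (-0.31) and RPL36A (-0.27), all of the large subunit, on the lower side. RPL7 stood at 1.86, 2.35, 2.12 and 1.94 in RB cows and at 2.52, 2.38, 2.50 and 2.25 in non-RB cows. The second RB array lay above the fourth non-RB array, and p was 0.126. Within slide 6 the median member difference was 0.04 (0.07 over all probes), within slide 8 it was -0.12 (0.14), and within session 3 it was 0.12 (0.09).

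In contralateral ICAR the median was 0.13 against 0.02 over all probes, with 20 of 55 members below 0 against 47.3% of all probes. By limma 0 members had an unadjusted p under 0.05, against 1.60% of all probes, and the methods' t-test gave 0, against 2.02%. Here too the slide 1 array set the direction, since without non-RB replicate 1 the median was -0.18 and 44 of 55 members lay below 0 against 44.9% of all probes, and with array quality weights it was -0.23 with 45 below 0 against 42.4%. The higher members of the rule were RPS15A ABR1694 (0.70), RPL18 (0.66) and RPL10A ABR7387 (0.41). RPL18, of the large subunit, stood at 5.47, 5.12, 5.49 and 5.17 in RB cows and at 3.14, 5.39, 5.35 and 4.74 in non-RB cows, where the lowest value is the slide 1 array. RPS15A ABR1694 repeated this, with 5.48, 4.87, 5.17 and 5.06 against 2.03, 5.24, 5.29 and 5.23. RPS15A ABR7622 (-0.49), RPS28 ABR6285 (-0.37) and RPL7 (-0.25) were the lower ones. Within slide 6 the median member difference was -0.23 (0.08 over all probes), within slide 8 it was 0.13 (-0.03), and within session 3 it was -0.21 (0.08).

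For the whole uterus the 4 arrays of a replicate number were averaged, which gave 4 RB and 4 non-RB values. The median member difference was -0.04 against 0.01 over all probes, and 36 of 55 members lay below 0 against 48.0%, while with quantile normalization the median was 0.06 and 13 lay below 0 against 49.0%. By limma 0 members had an unadjusted p under 0.05, against 2.21% of all probes, and the methods' t-test over 16 against 16 arrays, which are 4 replicate numbers per group, gave 2 against 13.6%. For 49 of 55 members the 95% interval lay within 1 of 0 on both sides, against 78.2% of all probes. Named on the lower side were RPS15A ABR7622 (-0.39), RPL7 (-0.29) and RPS21 (-0.26), and RPL26 (0.33), RPL8 (0.20) and RPL18 (0.15) were named on the higher side. Without slide 1 the median was -0.15 with 49 of 55 members below 0 against 47.7% of all probes, and RPL8 and RPL18 both turned to -0.05.

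Between the horns the median member difference over all arrays was 0.02, ipsilateral minus contralateral, against 0.00 over all probes, with 24 of 55 below 0 against 48.9%. By limma 0 members had an unadjusted p under 0.05, against 1.36% of all probes. Without slide 1 the median was -0.12, with 44 of 55 below 0 against 46.4% of all probes and 9 under 0.05 unadjusted against 4.19%. On the lower side the lowest p belonged to RPL7, with a difference of -0.20 that had an unadjusted limma p of 0.0542 over 16 against 16 arrays. RPS3, of the small subunit, had a difference of -0.30. RPL7 ranged from 1.59 to 2.63 with a median of 1.92 on ipsilateral and from 1.59 to 2.52 with a median of 2.24 on contralateral arrays, a wide overlap. On the higher side were RPL21 (0.26), RPS15A ABR7622 (0.30) and RPL6 (0.25). For 52 of 55 members the interval lay within 1 of 0, against 95.3% of all probes.

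The RB effect was lower in the ipsilateral than in the contralateral horn for 49 of 55 members, against 50.8% of all probes, with a median difference of effects of -0.29 against -0.01. At an unadjusted p under 0.05, 9 of 55 members were lower, against 4.16% of all probes lower and 5.98% in either direction: RPL27A, RPL21, RPL37, RPL18, RPS15A ABR1694, RPS25, RPL24, RPL15 and RPS24. All had an adjusted p of 0.799. For 6 members the 4 RB and 4 non-RB values did not overlap, among them RPL37, RPS25, RPL15, RPL30 and RPS14, against 2.59% of all probes apart in this direction. RPL27A had the lowest p, with an ipsilateral minus contralateral difference of -0.05 ± 0.166 in RB cows and 0.58 ± 0.302 in non-RB cows (SD, n = 4), and so an effect difference of -0.63 (SE 0.196, p = 0.00956, exact permutation p = 0.0571). This pattern rested on slide 1. Without its 2 arrays, both of the non-RB contralateral horn, the median was -0.00, 28 of 55 members lay below 0 against 57.3% of all probes, and 2 had an unadjusted p under 0.05 against 3.78%.

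CAR and ICAR were compared over all 32 arrays with group and horn in the model. The members were higher in CAR for 48 of 55, against 53.1% of all probes, with a median of 0.14 against 0.02. Small and large subunits had medians of 0.14 and 0.13, and the other bright probes 0.03. At an unadjusted p under 0.05, 1 of 55 was higher, against 8.69% of all probes higher and 16.2% in either direction, so the share of members past this limit was below that of the array. At an adjusted p under 0.05, 0 of 55 members and 174 of 12919 probes (1.35%) differed. With the replicate number as a block these were 0 and 1086, and 3 members had an unadjusted p under 0.05 against 23.4% of all probes. The count of 174 became 0 when RB replicate 1, 2 or 4, non-RB replicate 1, 3 or 4, or slide 1 was left out, 915 without RB replicate 3 and 717 without non-RB replicate 2. For 53 of 55 members the 95% interval lay within 1 of 0, against 88.2% of all probes.

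RPS18 had the lowest p between compartments. On CAR arrays its lowest value was 5.57 and its highest 6.43 with a median of 5.92 (n = 15, as its spot on a slide 1 array was flagged), and on ICAR arrays the values were 5.08 and 6.31, around a median of 5.73 (n = 16). The ranges overlapped widely, and the difference was 0.29 (SE 0.115, 95% interval 0.05 to 0.52). Over the 15 and 16 arrays its unadjusted limma p was 0.0188 and its adjusted p 0.191. RPS13 followed with 0.25, its CAR arrays lying between 5.32 and 6.67 and its ICAR arrays between 4.87 and 6.39. Then came RPL21 (0.28), RPS28 ABR1650 (0.23) and RPL5 (0.21), none with an unadjusted p under 0.05. The members with the lowest p on the lower side were RPS27L, a paralog of RPS27 (-0.13), RPL31 (-0.25), RPL30 (-0.12), RPS29 (-0.02) and RPL37 (-0.02). RPL31 and RPL30 each had their lowest CAR value, -2.38 and -3.01, on slide 1.

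Within a replicate number and horn, CAR lay above ICAR in 12 of 16 pairs of arrays. Of the 11 pairs on a common slide, 9 lay above 0, and the median member difference within them ran from -0.18 to 0.46 with a median of 0.20. The 2 pairs below 0 were the contralateral horns of RB replicates 1 and 3. The gland list had a median mean level of -0.82 on CAR and 1.13 on ICAR arrays, with ranges from -1.68 to 1.61 and from -1.54 to 1.64, and its part in the compartment difference was not tested. With array quality weights RPS18 passed an adjusted p of 0.05 (0.24, adjusted p = 0.044), and with the scan session as a block RPS13 did (0.34, adjusted p = 0.044).

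**Figure D5:**
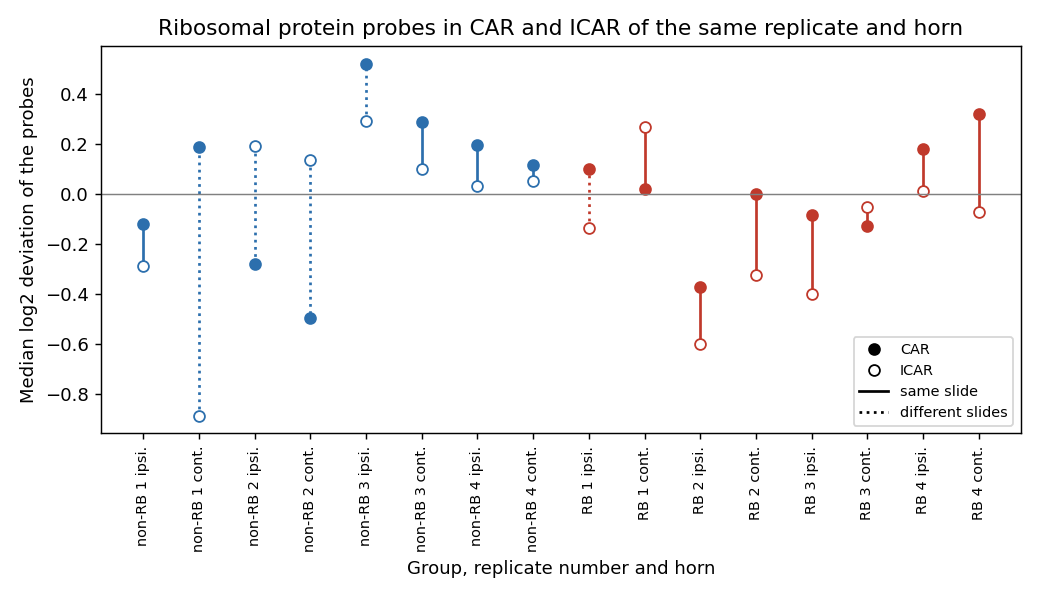
Median log2 deviation of the 55 ribosomal protein probes in CAR (filled) and ICAR (open) of the same replicate number and horn, joined by a solid line where both arrays were on 1 slide and by a dotted line otherwise. CAR is above ICAR in 12 of 16 pairs and in 9 of the 11 on 1 slide.

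The RB effect was higher in CAR than in ICAR for 37 of 55 members, but the direction of the median turned without non-RB replicate 2. The median difference of effects was 0.14 against 0.00 over all probes, with 18 of 55 members below 0 against 49.7%, and it was -0.12 without non-RB replicate 2. RPLP0 was the 1 member with an unadjusted p under 0.05, against 0.882% of all probes. Its CAR minus ICAR difference was 0.59 ± 0.125 in RB cows and -0.13 ± 0.562 in non-RB cows (SD, n = 4), so that the effects differed by 0.73 (SE 0.290, p = 0.0314, adjusted p = 0.9995, exact permutation p = 0.0286). RPLP0 and RPL6, both dim, were the 2 members whose RB and non-RB values did not overlap, against 0.704% of all probes. The exact permutation p of RPLP0 only restates this separation.

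The proteins of the stalk had 1 probe each. That of RPLP0 is among the dim probes, so whether it measured RPLP0 mRNA is uncertain. RPLP0 had a mean ± SD (n = 4) of -3.87 ± 0.463 in RB cows and -3.90 ± 0.190 in non-RB cows in ipsilateral CAR, and of -4.18 ± 0.163 and -4.39 ± 0.255 in contralateral CAR. In ICAR it had -4.76 ± 0.549 and -3.99 ± 0.270 ipsilaterally, and -4.47 ± 0.214 and -4.03 ± 1.10 contralaterally. The order of RB and non-RB cows thus differed between the compartments, and the contralateral ICAR spread came from the slide 1 array at -2.47.

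RPLP1 and RPLP2 form dimers on RPLP0. RPLP1 ranged from 2.94 to 4.65 in RB cows and from 4.03 to 4.71 in non-RB cows in ipsilateral ICAR, with a difference of -0.50 (95% interval -1.35 to 0.35). RPLP2 stood there at 6.31, 5.74, 5.97 and 6.29 in RB cows and at 6.28, 6.55, 6.52 and 6.34 in non-RB cows, and RB arrays 1 and 4 passed the lowest non-RB array. Its difference was -0.34 (95% interval -0.81 to 0.13). In the other 3 compartments the RPLP2 differences were -0.06, 0.07 and -0.01. RPLP1 had 0.06, 0.61 and 0.10, where the 0.61 of contralateral CAR came with a non-RB value of 1.25 on slide 1 against 4.87, 4.82 and 4.52 on the other arrays.

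RPS6, the ribosomal substrate of S6 kinase, had group means between 5.37 and 5.64 in the 8 combinations. In ipsilateral ICAR it stood at 5.53, 5.14, 5.31 and 5.50 in RB cows and at 5.22, 5.77, 5.96 and 5.51 in non-RB cows. The groups overlapped, and the difference was -0.24 (95% interval -0.75 to 0.27). In the other compartments the differences were -0.12 in ipsilateral CAR, -0.06 in contralateral CAR and -0.06 in contralateral ICAR. The arrays measure its mRNA, not its phosphorylation.

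RPL10A, RPS12, RPS15A and RPS28 had 2 probes each. In ipsilateral ICAR the RPL10A probes had -0.0048 and -0.03, values that rested on non-RB replicate 2, where they stood at 4.33 and 4.73 against at least 5.13 and 5.47 on the other non-RB arrays, and without it they had -0.23 and -0.27. The RPS28 probes had -0.57 and -0.30. The RPS15A probes had -0.06 for ABR1694 and -0.55 for ABR7622, but -0.15 and -0.16 without that array. The RPS12 probes had -0.31 for ABR1226 and -0.08 for ABR3265. In contralateral ICAR the probes of RPS15A lay on opposite sides of 0, at 0.70 and -0.49. None of these had an unadjusted p under 0.05. RPL3 and its paralog RPL3L had -0.10 and -0.32 in ipsilateral ICAR and 0.12 and 0.08 between CAR and ICAR. RPL3L had its lowest value, -8.66, on the slide 1 array of ICAR, where it was not well above background.

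Other genes of protein synthesis were taken from lists chosen by function: FAU and GNB2L1, which sit on the ribosome (3 probes), elongation factors and other TOP mRNAs (16), initiation factors (17), ribosome biogenesis and nucleolar proteins (19), mitochondrial ribosomal proteins (33) and the MTOR pathway with S6 kinases (6). No probe of any list had an adjusted p under 0.05 in any of the 9 comparisons by limma. In ipsilateral ICAR their median differences were 0.03, -0.15, 0.03, -0.11, 0.01 and -0.32, and 0 of their probes had an unadjusted p under 0.05 against 3.69% of all probes. EEF1B2, a subunit of the factor that recharges EEF1A, had -0.48, and TPT1, a classic TOP mRNA, had -0.54, both with a limma adjusted p of 0.863. Between CAR and ICAR the medians were 0.13, 0.21, 0.12, 0.02, -0.03 and -0.04. Of the elongation and TOP list, 2 of the 15 tested were higher in CAR at an unadjusted p under 0.05, EEF1G (0.42) and IMPDH2 (0.32), against 8.69% of all probes higher. Of the initiation factors 1 was lower, EIF4G3 (-0.36), and of the mitochondrial ribosomal proteins 1 was lower, MRPS36 (-0.77, limma adjusted p = 0.074), against 7.55% of all probes lower.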

How the data were processed

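The authors deposited the Agilent Feature Extraction 9.5 output of 32 single-colour arrays, in which each spot's intensity is background-subtracted and detrended but not normalized between arrays. A deposited table of log2 values equals the values used here plus an array constant of 0.00420 to 0.0140, but keeps spots with an outlier flag. Here control spots were left out, outlier-flagged spots set to missing, saturated spots kept, and log2 intensity taken minus the array's 75th percentile. With limma 3.58.1 in R 4.3.3 (lmFit, eBayes, two-sided, Benjamini-Hochberg over all probes tested at 0.05), RB and non-RB were compared in each compartment over probes that 2 or more of 8 arrays read well above background, with at least 3 values per group. Comparisons over all arrays used probes above background on at least 8 of 32, the whole uterus replicate means, and the differences of effects the differences within a replicate number. A flagged spot drops out of such a mean. Named probes had an exact permutation test over 35 splits. Genes were named from the files, and no genome coordinates were used.

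The named members were the 3 with the lowest p in each direction per RB comparison and between horns, the 5 between CAR and ICAR, the stalk, RPS6, paralogs, and those saturated, dim or with more than 1 probe. Some members that this rule or another result would name are not reported here. The members and lists were chosen with earlier results of these data known. Groups came from the labels, which do not say that arrays of a group come from separate cows; the methods give 4 cows per group. The alternatives were filters, quantile and normexp (offset 50) processing, the deposited table, a surface correction, quality weights, slide, session and replicate blocks, the methods' t-test, members by accession and leaving out each replicate; the session blocks, the slide block for the whole uterus, and the differences of effects without slide 1 were added after seeing the data. The fits were tested on simulated arrays with independent noise smaller than observed, no slide or cow effects, and changes larger than those of the members here. Changes of the size seen here were thus not covered. The number of arrays limits the precision.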

Additional observations from a re-analysis of the deposited data

Results flagged for a closer look

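In groups of 4 arrays, a lone array far from the other 3 was looked for in 85 groups of values named in the report and found in 11. Chance gives about 1 in 20 groups. Over all members 57 of 425 groups had one, and non-RB ICAR contralateral replicate 1 was that array in 23 and non-RB CAR contralateral replicate 2 in 16, both on slide 1. The array median of the members in non-RB ICAR contralateral was -0.89 on replicate 1. On that same array RPS15A ABR1694 stood at 2.03, RPL10A ABR7387 at 3.46, RPLP1 at 2.95 and RPS6 at 4.89, each below the other 3 arrays. On non-RB CAR contralateral replicate 2, RPLP1 at 1.25 and RPLP2 at 5.86 stood below the rest. Away from slide 1, RPL37 was high at 6.33 on RB CAR ipsilateral replicate 1, RPLP0 was high at -3.59 on non-RB ICAR ipsilateral replicate 2 and low at -4.77 on non-RB CAR contralateral replicate 3, and RPL26 was high at -1.07 on non-RB ICAR ipsilateral replicate 1. No difference of the RB effect between compartments or between horns had an adjusted p under 0.05 for a member. The causes were not tested.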

How the results depend on the processing

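The count of members with an adjusted p under 0.05 was 0 in 179 of 181 alternatives and 1 in 2 (CAR against ICAR with array quality weights, RPS18, or with the scan session as a block, RPS13). The median member difference moved by less than the spread between replicates in 178 of 181, and by more for the difference of the RB effect between horns with quantile normalization (-0.17), the deposited table (-0.41) and without slide 1 (-0.0035). In most comparisons that spread was larger than the median itself, so medians that changed sign can count as not moved. In contralateral CAR the spread was 0.28 and the median went from 0.06 to as low as -0.18. In contralateral ICAR the spread was 0.39 and the median went from 0.13 to as low as -0.23. Normexp shifted the median of all probes to -0.20 in contralateral ICAR and to 0.14 for the difference of effects between CAR and ICAR. Leaving out 1 replicate at a time, the median member difference ranged from -0.18 to 0.03 in ipsilateral CAR, -0.44 to -0.24 in ipsilateral ICAR, -0.18 to 0.27 in contralateral CAR, -0.18 to 0.24 in contralateral ICAR, -0.14 to 0.04 in the whole uterus, 0.05 to 0.22 between CAR and ICAR, -0.02 to 0.06 between horns, -0.12 to 0.28 for the difference of effects between compartments and -0.35 to -0.20 for that between horns. Same-numbered RB and non-RB arrays are from different cows, but some shared a slide or a scan session. In contralateral CAR, for example, replicate 1 of both groups was on slide 8. The deviations of same-numbered RB and non-RB arrays correlated above 0.1 in 8 of 16 pairs. Within a group this held for 42 of 48 pairs of the same number and 24 of 144 pairs of different numbers. The part of shared batches in these correlations was not tested. With the replicate block 0 members were called in any comparison, the median was -0.10 in ipsilateral CAR and 0.13 between CAR and ICAR, 3 members between CAR and ICAR, 3 between horns and 11 in the horn difference of effects had an unadjusted p under 0.05, against 23.4%, 3.66% and 6.69% of all probes, and all probes called between CAR and ICAR rose from 174 to 1086. Of 1107 values for named members, 1061 kept direction and side of the threshold, 2 passed it and 44 changed direction, for causes that were not tested beyond the removal of arrays itself. With array quality weights RPS27L became -0.012 in ipsilateral ICAR, RPS15A ABR1694 -0.14 and RPL10A ABR7387 -0.034 in contralateral ICAR, and RPL37 0.070, RPL30 0.068 and RPS29 0.0051 between CAR and ICAR. With the slide as a block RPL26 became -0.24 in ipsilateral ICAR, and RPL10A -0.016, RPL18 -0.049 and RPS28 ABR6285 0.090 in contralateral ICAR. With slide and cow blocks RPL18 became -0.11 and RPL8 -0.21 in the whole uterus. With the session as a block RPS15A became -0.013, RPL10A -0.070 and RPS28 0.090 in contralateral ICAR, and RPL37 0.061 and RPS29 0.046 between CAR and ICAR. In the deposited table, which keeps flagged spots, RPL36A became 0.64 in contralateral CAR, RPS21 0.13 in the whole uterus, RPS28 ABR1650 -0.028 and RPL5 -0.017 between CAR and ICAR, and RPS3 0.27 between horns. After surface correction RPL37 became 0.021 between CAR and ICAR. Without slide 1 RPL18 became -0.045 and RPL8 -0.054 in the whole uterus, RPL37 0.047 and RPL30 0.17 between CAR and ICAR, and RPL24 0.070 and RPS24 0.071 in the horn difference of effects. Leaving out 1 replicate at a time turned RPL26 (-0.011 to 0.52), RPS27L (-0.041 to 0.11) and RPL4 (-0.057 to 0.31) in ipsilateral ICAR, RPS15A (-0.11 to 0.98) and RPL10A (-0.039 to 0.58) in contralateral ICAR, RPL8 (-0.065 to 0.42) in the whole uterus, and RPS29 (-0.20 to 0.15), RPL37 (-0.12 to 0.21), RPL31 (-0.49 to 0.17) and RPL30 (-0.37 to 0.38) between CAR and ICAR.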
